A study of Rattus norvegicus with 8 samples.

Results

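Odorant, vomeronasal and bitter taste receptor genes were followed in the rat hippocampus. The array measured 1142 such genes with 1148 probes, recognised by gene symbols of the Olr, Or, Vom1r, Vom2r and Tas2r families, among 12206 named genes and 41012 non-control probes. The 158 genes described here, each with 1 probe printed as 1 spot per array, were chosen by the scanner software's detection call, which had to be well above background on 4 or more arrays of 8. They were 152 odorant receptors, 5 type 2 and 1 type 1 vomeronasal receptors, and no bitter taste receptor. That call is a measured value, so counts of detected probes are descriptions. The 4 CCH rats were male Wistar rats that ate the CE-2 standard feed with 0.1% coral calcium hydride powder (CCH, made from coral calcium) from 6 weeks of age. The 4 control rats, of the same sex, strain and age, ate the CE-2 feed alone. All were killed at 8 weeks of age, and total RNA of each hippocampus was hybridised to a 1-colour (Cy3) Agilent rat array. The free-text sample descriptions speak of a parkinsonism lesion model and injections that cut across the diets, and were not used because the titles, the treatment labels and the design text give the diets.

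Odorant receptors are G protein-coupled receptors of olfactory sensory neurons in the nose. A mature olfactory neuron expresses a single receptor gene at a high level, and the receptor signals through the G protein Gnal, the adenylyl cyclase Adcy3 and a cyclic nucleotide-gated channel. The genes form tandem clusters and fall into class I (the Or51 to Or56 families) and class II. Vomeronasal receptors serve pheromone sensing, type 1 with Gnai2 and type 2 with Gnao1, and Tas2r receptors sense bitter compounds. Low-level transcripts of odorant receptor genes have been reported in many tissues outside the nose, the brain included. In whole hippocampus, fewer cells of a type and less RNA per cell cannot be told apart.

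The array quality bears on these dim probes. All CCH arrays lay on slide 2 and all control arrays on slide 1, and the slides were scanned separately, so diet, slide and scan cannot be told apart in any comparison. Between 76.3% and 79.9% of spots per array were well above background, and 0 were saturated. The median local background was 34.9 ± 0.25 intensity units on CCH arrays and 33.3 ± 0.957 on control arrays (SD, n = 4 each, two-sided exact permutation p = 0.0286, the smallest that 4 against 4 allows). CCH replicate 1 stood apart: limma gave it an array weight of 0.184, against 0.831 to 1.81 for the other 7 arrays. Values without it are given beside some of the differences, and a difference given alone may also depend on it. Hippocampal neuron markers were as labelled, with 8 of 8 genes well above background on all 8 arrays. Of the 5 olfactory sensory neuron markers named on the array, only Adcy3 reached 4 arrays, while Omp, the marker protein of mature olfactory neurons, was well above background on 1 array and the channel subunit gene Cnga2 on 0. Precision is limited by the number of arrays.

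The 300 bases around the annotated start of 3 detected odorant receptor genes are shown because these are the genes whose spots stood highest above their own local background, and to set their composition beside that of the receptor genes that are not members. They come from the RefSeq table of the GRCr8 assembly, 250 bases before to 50 after the start, read 5′ to 3′ on the gene's strand. Capitals mark TAATTA, a homeodomain-type core of the kind read by LHX2, a factor known from mouse odorant receptor choice. Most receptor models here hold coding sequence only (145 of the 158 members had a length that is a multiple of 3), so the start is mostly a coding start and not a mapped promoter. Or4f7c lies at chr3:118914291-118914590 on the minus strand, Or2t48e at chr10:43191666-43191965 on the minus strand and Or2ak6 at chr10:43699014-43699313 on the plus strand.
Or4f7c: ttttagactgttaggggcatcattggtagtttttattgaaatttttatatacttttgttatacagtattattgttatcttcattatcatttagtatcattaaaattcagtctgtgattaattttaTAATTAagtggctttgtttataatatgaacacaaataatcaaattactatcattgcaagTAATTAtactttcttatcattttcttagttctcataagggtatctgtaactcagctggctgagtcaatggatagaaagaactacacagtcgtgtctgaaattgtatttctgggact
Or2t48e: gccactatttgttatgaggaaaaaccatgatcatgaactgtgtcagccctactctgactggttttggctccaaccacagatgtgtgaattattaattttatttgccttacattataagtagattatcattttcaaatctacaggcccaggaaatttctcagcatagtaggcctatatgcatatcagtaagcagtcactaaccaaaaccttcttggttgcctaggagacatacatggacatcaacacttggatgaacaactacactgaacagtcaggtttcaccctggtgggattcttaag
Or2ak6: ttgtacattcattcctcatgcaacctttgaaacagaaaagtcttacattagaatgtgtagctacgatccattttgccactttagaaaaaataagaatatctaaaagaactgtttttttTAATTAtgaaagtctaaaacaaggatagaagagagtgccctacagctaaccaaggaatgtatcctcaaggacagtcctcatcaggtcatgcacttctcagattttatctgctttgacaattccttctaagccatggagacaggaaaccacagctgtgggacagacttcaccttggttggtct
The window of Or4f7c held 2 copies of TAATTA, that of Or2ak6 held 1 and that of Or2t48e held 0. TAATTA is its own reverse complement, so a single search covered both strands. Of the 158 members 135 had a window in the table, and 27 of them (20.0%) held TAATTA, against 18.9% of the 837 other measured receptor genes with a window and 5.35% of 27457 windows of all genes. The median GC content was 37.7% in the members, 35.3% in the other receptor genes and 52.3% in all windows, and the median number of CpG pairs was 1, 1 and 7. CCCNNGGG, the inner letters of the binding motif of EBF factors, stood on either strand in 1 member window (0.741%), in 2.03% of the other receptor windows and in 12.7% of all windows. A match here is a description and not a binding site.

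Detection was rare in these families. Of the 1148 receptor probes, 158 (13.8%) reached 4 arrays, against 12314 of 14036 other named probes (87.7%). At the extremes, 779 receptor probes (67.9%) were above background on 0 arrays and 96 (8.36%) on all 8. The plot of detection shows both ends. Among the families, 20 of 114 class I probes (17.5%) and 124 of 928 class II probes with an Or symbol (13.4%) were members. Or2 gave 22 of 107 probes (20.6%), Or13 gave 8 of 38 (21.1%) and Or52 gave 13 of 66 (19.7%), whereas Or7 gave 4 of 53 (7.55%) and Or12 gave 0 of 18. Of the vomeronasal receptors, 5 of 37 Vom2r and 1 of 6 Vom1r probes were members. All 11 Tas2r probes were above background on 0 arrays.

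**Figure D1:**
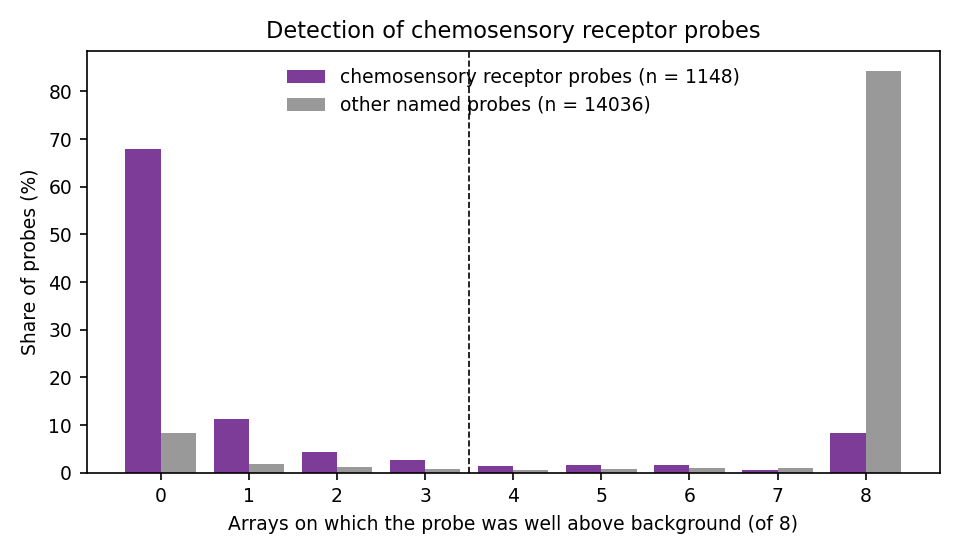
Share of probes (y axis, percent) by the number of arrays, of 8, on which the probe was well above background (x axis), for 1148 chemosensory receptor probes and 14036 other named probes. Probes right of the dashed line were detected on at least 4 arrays. Most receptor probes (67.9%) sit at 0 arrays and most other named probes (84.3%) at 8.

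The cut at 4 arrays ran through a continuum of dim probes. The 16 members detected on exactly 4 arrays had a mean processed signal with a median of 6.35 (5.23 to 21.1), and the 30 receptor probes detected on exactly 3 arrays had a median of 6.27 (4.29 to 11.9). Just inside it, the vomeronasal receptor probe Vom2r53 gave 1.91, 11.6, 4.12 and 10.2 in CCH rats against 5.55, 4.59, 10.1 and 11.9 in control rats. Just outside it, the odorant receptor probe Or8u3 gave 44.3, 4.83, 4.26 and 9.89 in CCH rats against 4.76, 3.18, 5.43 and 4.57 in control rats. Or8g50 and Or7h7, both outside, each had a single high array, control replicate 1, at 65.2 and 47.5. Over the 8 arrays, 147 to 225 receptor probes were detected per CCH array and 152 to 219 per control array, with means of 169.5 ± 37.2 in CCH and 185.5 ± 28.0 in control (SD, n = 4 each). CCH replicate 1 held the highest of these counts.

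Most members were close to the glass. The ratio of the spot's median signal to its local background averaged over 8 arrays had a median of 1.47 over the members (1.21 to 21.5), against 1.06 over the receptor probes detected on 0 arrays. Only 36 members had a ratio of at least 2, 9 of at least 5 and 4 of at least 10. The 4 were Or4f7c (21.5), Or2t48e (16.8), Or2ak6 (14.7) and Or13a27e (11.5), all class II odorant receptors.

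The probe for Or4f7c gave a processed signal of 1380, 835, 708 and 821 in CCH rats against 629, 639, 542 and 587 in control rats. Every CCH array was above every control array in this signal, which is not yet scaled between arrays. After scaling to each array's 75th percentile the log2 values overlapped, at 0.32 ± 0.24 in CCH and -0.02 ± 0.16 in control (SD, n = 4 each), a difference of 0.34 ± 0.14 (SE, limma adjusted p = 0.297). Or2t48e gave 881, 618, 580 and 618 in CCH rats against 515, 474, 456 and 478 in control rats, and its scaled difference was 0.21 ± 0.10 (SE, adjusted p = 0.334). Its scaled groups overlapped as well. Or2ak6 gave 836, 430, 454 and 408 in CCH rats against 363, 290, 276 and 241 in control rats. Its scaled groups did not overlap, at -0.52 ± 0.31 in CCH and -1.07 ± 0.15 in control, a difference of 0.56 ± 0.16 (SE, adjusted p = 0.166) that was 0.41 without CCH replicate 1. Or13a27e gave 578, 368, 312 and 352 in CCH rats against 281, 274, 237 and 228 in control rats, a scaled difference of 0.37 ± 0.13 (SE, adjusted p = 0.231).

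**Figure D2:**
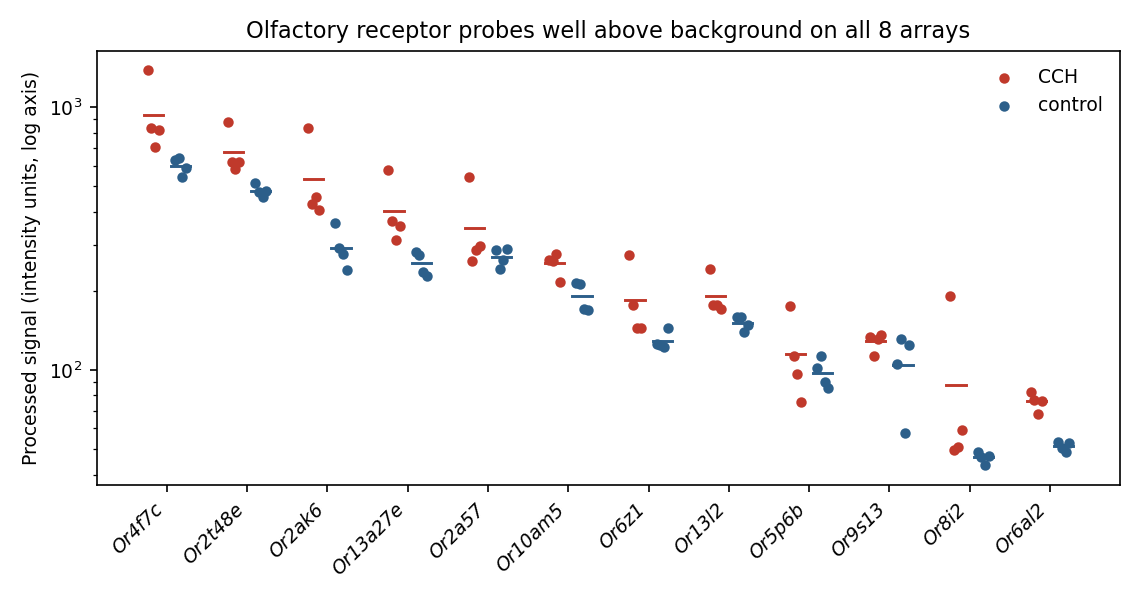
Processed signal (y axis, intensity units on a log axis) of the 12 members with the highest ratio of spot to local background among those detected on all 8 arrays, in the order of that ratio. Points are single arrays, CCH left of control, and lines are group means. CCH replicate 1 is the high CCH point for Or2a57 (545 against 260 to 297 on the other CCH arrays) and Or8i2 (191 against 49.6 to 59.0).

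The other 8 of these 12 probes, each for an odorant receptor, had scaled differences of -0.08 to 0.40 (adjusted p from 0.215 to 0.933). Or8i2 shows how a single array sets such a value: it gave 191, 49.6, 51 and 59.0 in CCH rats against 48.8, 46.8, 43.3 and 46.9 in control rats. Its scaled difference was 0.40 ± 0.33 (SE) with all arrays and 0.03 without CCH replicate 1. Or2a57 gave 545, 260, 285 and 297 in CCH rats against 286, 243, 262 and 288 in control rats, with a difference of 0.04 that was -0.10 without CCH replicate 1. Or6al2 was evenly higher, with 82.7, 77.0, 68.2 and 76.3 in CCH rats against 53.0, 50.5, 48.8 and 52.7 in control rats. Its scaled groups did not overlap and differed by 0.31 ± 0.11 (SE, adjusted p = 0.215), and by 0.36 without CCH replicate 1. Or9s13 had a single low array, control replicate 3 at 57.4, against 105 to 131 on the other control arrays and 113 to 136 on the CCH arrays. Or10am5 and Or6z1, which neighbour each other in the RefSeq gene order, had differences of 0.15 ± 0.14 and 0.21 ± 0.14 (SE), and of 0.23 and 0.10 without CCH replicate 1.

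The members were spread over the receptor clusters. Among the 158 members, 28 (17.7%) had a member as a direct neighbour in the GRCr8 gene order, against 129 of 984 other measured receptor genes (13.1%), and 107 (67.7%) lay between receptor genes on both sides, against 688 (69.9%). Chromosome 10 gave 24 members of 111 measured genes (21.6%), chromosome 1 gave 49 of 284 (17.3%), chromosome 3 gave 31 of 280 (11.1%) and chromosome 8 gave 14 of 144 (9.72%). Receptor genes have close copies, and whether a probe reads only its named gene was not tested. No gene had 2 member probes. Of the 6 genes with 2 receptor probes, only Or5b123 had a member, which was detected on all 8 arrays while the gene's other probe was detected on 0.

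For the diet comparison no member passed the test. Over all 31618 tested probes 55 were called at an adjusted p under 0.05 (0.174%), and 0 of the 158 members were. At an unadjusted p under 0.05 there were 28 members (17.7%), 21 higher (13.3%) and 7 lower (4.43%) in CCH. The background was 15.4% of all tested probes (8.79% higher and 6.59% lower). The total share is near the background, while the share higher is above it and the share lower below it. These shares changed with the signal used, as given below. The groups did not overlap for 20 members (12.7%), 14 with every CCH array above and 6 with every CCH array below, against 11.3% of all tested probes (6.59% and 4.70%). The members' median log2 difference was -0.00, with 79 higher and 79 lower and quartiles of -0.30 and 0.26, against a median of 0.03 over all tested probes. Their median standard error was 0.22, against 0.14 over all tested probes, so small differences were less well resolved than elsewhere on the array.

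The 6 higher members with the smallest unadjusted p were odorant receptors: Or2ak6, described above at 14.7 times its background, and 5 probes under 2 times background. Or10ak14 gave 23.2, 16.5, 19.1 and 14 in CCH rats against 11.7, 7.71, 8.36 and 7.98 in control rats. The groups did not overlap, and the scaled difference was 0.77 ± 0.12 (SE, adjusted p = 0.0562). It was 0.73 without CCH replicate 1 (adjusted p = 0.0464), but 0.24 with the median minus background signal described below (adjusted p = 0.481). Or52s6, a class I receptor, gave 20.0, 19.3, 14.4 and 14.5 in CCH rats against 9.19, 10.2, 9.14 and 5.93 in control rats, a scaled difference of 0.74 ± 0.17 (SE, adjusted p = 0.0997) that was 0.27 by median minus background. Or8b3 gave 15.8, 10.8, 8.11 and 8.15 in CCH rats against 6.81, 4.40, 5.35 and 6.53 in control rats, with no overlap. It was above background on 4 of 4 CCH arrays and on 1 of 4 control arrays, and its difference was 0.60 ± 0.16 (SE, adjusted p = 0.127), or 0.15 by median minus background. Or13p5 had the same detection pattern and a difference of 0.73 ± 0.21 (SE, adjusted p = 0.168), or 0.19 by median minus background. Or5b123 differed by 0.68 ± 0.19 and Or13n4b by 0.36 ± 0.10 (SE, adjusted p = 0.143 for both), each without overlap, and by 0.42 and 0.24 by median minus background.

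On the lower side stood the vomeronasal receptor probe Vom2r47, which gave 8.55, 4.15, 2.31 and 6.81 in CCH rats against 13.7, 13.6, 13.1 and 10.6 in control rats. Every CCH array was below every control array, and it was above background on 1 of 4 CCH arrays and on 4 of 4 control arrays. The scaled difference was -1.64 ± 0.33 (SE, adjusted p = 0.0745), and -1.82 without CCH replicate 1 (adjusted p = 0.0491). Or2n1l gave 5.09, 5.54, 3.60 and 2.83 in CCH rats against 8.35, 5.92, 6.27 and 5.87 in control rats. It was not well above background on any CCH array and was on all 4 control arrays, so its fold was taken against a floor. The floor was the lowest scaled signal well above background on each CCH array, or the probe's own where higher. The scaled control mean was 1.27-fold above it. The measured difference was -0.92 ± 0.15 (SE, limma adjusted p = 0.0566). By median minus background Or2n1l gave 8, 8.5, 6.5 and 4 units in CCH rats against 8, 6.5, 8 and 8.5 in control rats, with overlap. The scaled difference in that signal was -0.51 (limma adjusted p = 0.233). Or2n1l and Vom2r47 reached the detection limit through the control arrays, where they are high, so their differences are descriptions and their p-values were favoured by the rule. Or5h17b gave 29.8, 14.5, 15.1 and 15.4 in CCH rats against 25.5, 22.7, 25.8 and 20.2 in control rats. CCH replicate 1 had the highest unscaled signal of the 8 arrays here, while after scaling the groups did not overlap and differed by -0.65 ± 0.17 (SE, adjusted p = 0.131).

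Or13a23 was above background on 1 of 4 CCH arrays and 4 of 4 control arrays, with a difference of -0.99 ± 0.30 (SE, adjusted p = 0.182). Or52k1 differed by -0.45 ± 0.12 (SE, adjusted p = 0.133) and Or8g26 by -0.57 ± 0.16 (SE, adjusted p = 0.155). Or8g26 was above background on 2 of 4 CCH arrays and 4 of 4 control arrays. The detection rule thus favoured its p-value, and its difference is a description. In all, 5 members were above background on every array of a diet and on at most 1 of the other: Or8b3 and Or13p5 in CCH, and Or13a23, Or2n1l and Vom2r47 in control. These 5 became members through the group where they are high, so their differences are no support for an effect of diet.

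**Figure D3:**
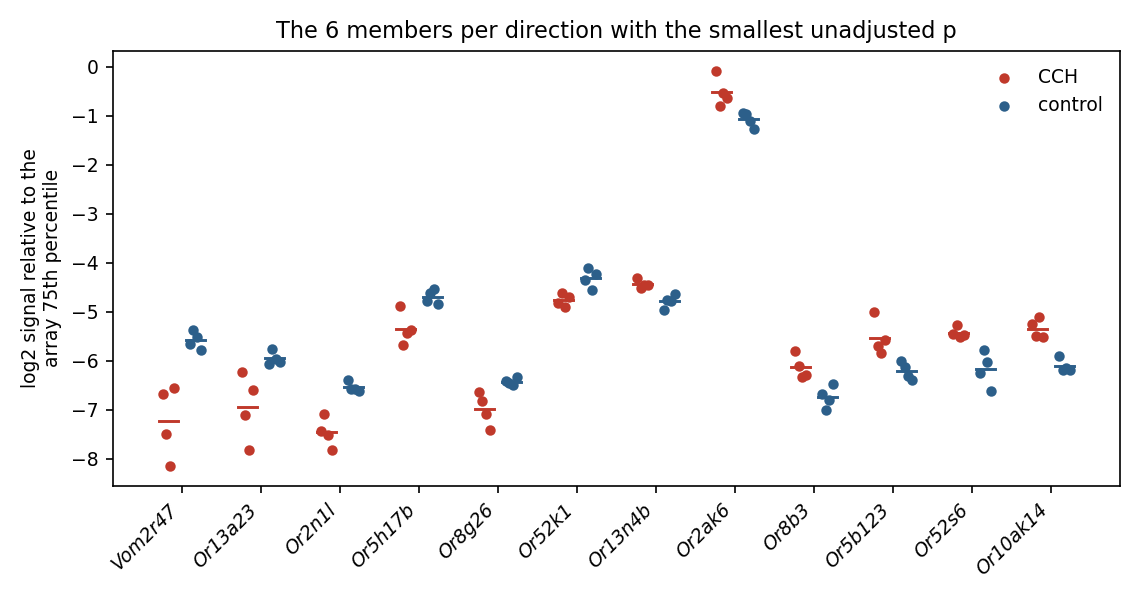
Scaled log2 signal (y axis, relative to each array's 75th percentile) of the 6 members per direction with the smallest unadjusted p. Points are single arrays, CCH left of control, and lines are group means. The groups do not overlap for any of the 12, and 0 passed an adjusted p of 0.05.

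The other 5 vomeronasal receptor probes were not called by either signal. Vom2r40 gave 104, 26.0, 24.7 and 17.2 in CCH rats against 24.8, 17.3, 20.9 and 30.2 in control rats, with a scaled difference of 0.26 ± 0.43 (SE) that was -0.20 without CCH replicate 1. Vom2r36 gave 30.5, 16.6, 15.5 and 13.2 in CCH rats against 16, 16.8, 17.3 and 11.0 in control rats, a scaled difference of 0.00 ± 0.21 (SE). Both were detected on all 8 arrays. Vom2r53 and Vom2r60, each detected on 4 arrays, differed by -0.68 ± 0.65 and 0.09 ± 0.36 (SE), and by -0.08 and 0.15 without CCH replicate 1. Vom1r90, detected on 5 arrays, differed by -0.38 ± 0.23 (SE) in the processed signal. By spot median minus background, described next, it gave 9, 6, 8 and 4.5 units in CCH rats against 11, 11, 10 and 10 in control rats, without overlap, a scaled difference of -0.92 (limma adjusted p = 0.0681).

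A second signal from the same spots was set beside the processed signal, namely the spot's median pixel intensity minus its local median background. Over the members their log2 values had a Pearson correlation of 0.964 to 0.983 across probes within an array, as a description. The processed signal was mostly the lower of the pair: their difference, processed minus the other, had a per-array median of -2.43 to -0.898 units on CCH arrays and -5.10 to -2.23 units on control arrays (two-sided exact permutation p = 0.0857). The median member thus stood at 12 to 21.6 processed units on CCH arrays and 10.8 to 12.5 on control arrays (exact permutation p = 0.114). By median minus background it stood at 14 to 23 units on CCH arrays and 14.5 to 17 on control arrays (exact permutation p = 0.857). The 153 negative control spots per array differed between the diets in opposite directions in these signals, by the mean of their per-array medians. By median minus background they were at -0.75 ± 0.5 units on CCH arrays and 1.25 ± 0.957 on control arrays (SD, n = 4 each, exact permutation p = 0.0571). By processed signal they were at 1.42 ± 0.0955 on CCH arrays and 1.19 ± 0.213 on control arrays (exact permutation p = 0.114).

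With median minus background the balance of the members was different. Their median difference was -0.18, with 53 higher and 105 lower, against a median of -0.02 over all tested probes. At an unadjusted p under 0.05 there were 37 members (23.4%), 10 higher (6.33%) and 27 lower (17.1%), against 15.9% of all tested probes (6.32% higher and 9.63% lower). Of the 158, 132 kept the sign of their difference, 26 were higher in the processed signal and lower in the other, and 0 went the opposite way. Of the 28 members with an unadjusted p under 0.05 in the processed signal, 16 also had it in the other signal with the same sign, 9 higher and 7 lower. Vom2r47 was the 1 member called by median minus background, at -1.55 (limma adjusted p = 0.0331, against 0.215% of all tested probes called). Since it reached the detection limit through the control arrays, where it is high, this call is a description and supports nothing about the members.

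The split followed the level. For the 36 members with a spot at least 2 times its background, the median difference was 0.21 by processed signal (30 higher, 6 lower), 0.10 by median minus background (28 higher, 8 lower) and 0.12 by processed signal without CCH replicate 1 (26 higher, 10 lower). For the 122 members under that ratio it was -0.06 (49 higher, 73 lower), -0.27 (25 higher, 97 lower) and -0.14 (44 higher, 78 lower) in the same order. With normexp background correction, which fits a background distribution to all spots, the 36 had a median of 0.01 and the 122 of -0.20, with all tested probes at -0.07. Under it 57 members (36.1%) had an unadjusted p under 0.05, 4 higher (2.53%) and 53 lower (33.5%), against 20.9% of all tested probes (5.83% higher and 15.1% lower). With normexp 18 of the 36 were higher and 18 lower, and 2 of the 122 were higher and 120 lower. The percentile used for scaling averaged 732 ± 110 processed units in CCH and 611 ± 61.0 in control (SD, n = 4 each). A two-sided exact permutation of these values gave p = 0.0857. The parts that the slides' background difference, the normexp offset of 50 and the scaling had in these differences were not tested.

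**Figure D4:**
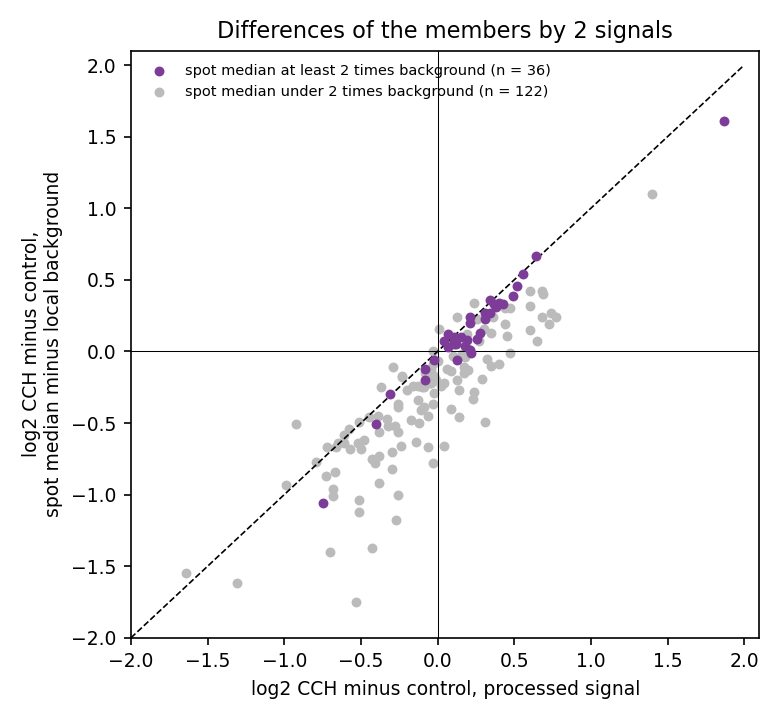
The log2 difference, CCH minus control, of each of the 158 members by processed signal (x axis) and by spot median minus local background (y axis), with the line of equality dashed. Purple points are the 36 members at least 2 times their background and grey points the 122 under it. Grey points lie mostly below the line, and 26 points are above 0 on the x axis and below 0 on the y axis.

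The members that depended most on the choice of signal were all dim. Or2h2 gave 10.3, 3.73, 1.25 and 6.15 processed units in CCH rats against 5.39, 5.58, 5.69 and 3.72 in control rats, and 14, 1, 1.5 and 7 units above background in CCH rats against 12, 8, 12 and 8 in control rats. Its difference was -0.53 by the first signal and -1.75 by the second. Or2y13 had -0.43 and -1.37, and Or5p81 had -0.27 and -1.18. Or4c110 changed sign, with 0.31 by processed signal and -0.49 by median minus background. Without CCH replicate 1 the processed differences were -0.88 for Or2h2, -0.72 for Or2y13, -0.48 for Or5p81 and 0.12 for Or4c110.

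Some members had a strong signal on some arrays and one near background on others, within both diets. Or51af1, a class I receptor, gave 1.51, 104, 1.32 and 1.32 in CCH rats against 1.45, 11.3, 7.66 and 40.2 in control rats. CCH replicate 2 and control replicate 4 were high, and the values above background (122.5 and 48 units on these arrays) showed the same. Or6b6 gave 29.0, 1.46, 4.74 and 47.9 in CCH rats against 1.38, 6.02, 7.77 and 49.9 in control rats. Or5p60c gave 36.5, 1.28, 4.71 and 7.30 in CCH rats against 4.67, 2.50, 8.13 and 58.9 in control rats. Both groups hold high and low arrays for these probes. Control replicate 4 was the highest control array for Or51af1, Or6b6 and Or5p60c, and CCH replicate 1 was high for Or6b6 and Or5p60c. Or9k7 gave 142, 7.18, 10.6 and 4.50 in CCH rats against 9.04, 6.83, 48.2 and 4.15 in control rats. Or2t47d had the reverse form, with 455, 313, 308 and 312 in CCH rats against 233, 229, 246 and 2.87 in control rats, a single array near background. Its difference of 1.87 ± 1.33 (SE, adjusted p = 0.558) was 0.30 without control replicate 4. Each probe is 1 spot per array, so a spot and a rat cannot be told apart here.

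The spread over the 8 arrays was wide in general. The SD of the scaled log2 signal had a median of 0.40 over the members (0.10 to 2.54) and of 0.28 over the 96 members detected on all 8 arrays, against 0.23 over all tested probes. CCH replicate 1 was the highest array for 64 members (40.5%), against 23.2% of all tested probes, and the median member lay 0.32 above its mean there on the log2 scale while the median of all tested probes lay at -0.03. Without that array 708 of 31594 tested probes were called (2.24%) and 5 members were, Or10ak14 higher and Or2n1l, Or4c122, Or5h17b and Vom2r47 lower. Or2n1l, Or4c122 and Vom2r47 were detected on all 4 control arrays and on 0, 2 and 1 CCH arrays, so the detection rule favoured these calls, and the count is a description. With array weights 8 members were called (5.06%), 3 higher and 5 lower, against 4.23% of all tested probes. Their detection by diet is not given here, so this count is a description too. Among probes detected on all 8 arrays 1 of 96 members was called (1.04%), Or10ak14, against 0.707% of all tested there. Or4c122 is named because of its call without CCH replicate 1, after its values were seen.

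**Figure D5:**
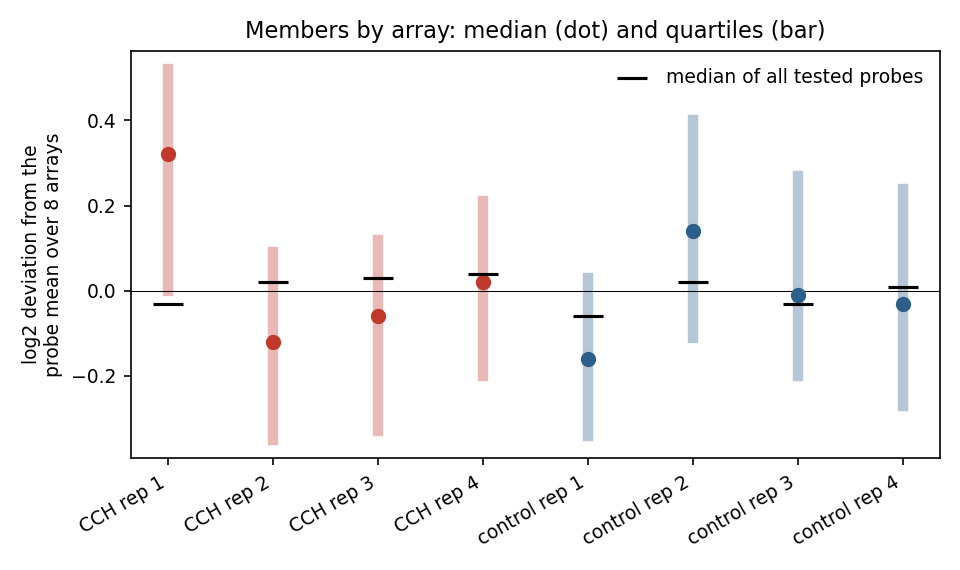
Deviation of the members' scaled log2 signal from the probe's mean over 8 arrays (y axis) by array, CCH arrays left of control arrays. Dots are the median over the 158 members, bars span their quartiles and black dashes are the median of all tested probes. CCH replicate 1 stands at 0.32, against -0.16 to 0.14 on the other 7 arrays.

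Genes that serve these receptors were present in part. Of 21 genes of olfactory transduction and receptor export, 15 were named on the array and 10 were tested, all detected on 8 arrays. Of these, 8 were higher and 2 lower, with a median difference of 0.12 and 0 called, against 0.174% of all tested probes. Without CCH replicate 1 there were 6 higher and 4 lower. Adcy3, the cyclase of odorant signalling, gave 830, 531, 389 and 462 in CCH rats against 422, 375, 370 and 372 in control rats, a scaled difference of 0.21 ± 0.14 (SE, adjusted p = 0.519) that was 0.09 without CCH replicate 1, the highest array. Reep1, a receptor export factor, differed by 0.34 ± 0.15, Gnb1, a G protein beta subunit, by 0.28 ± 0.17 and the receptor kinase Grk3 by -0.27 ± 0.17 (SE, adjusted p from 0.333 to 0.488). Without CCH replicate 1 these were 0.30, 0.11 and -0.12. For each listed or marker gene the brightest tested probe was used. The other probe, also detected on 8 arrays, differed by -0.10 ± 0.13 for Reep1 and by 0.18 ± 0.13 for Gnb1 (SE). The olfactory neuron genes Cnga2, Cnga4, Cngb1, Omp and Rtp1 did not reach 4 arrays.

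All 7 measured genes of receptor choice were detected on 8 arrays, 4 higher and 3 lower in CCH, and 0 were called. They included Lhx2 (0.25 ± 0.13), Emx2 (0.21 ± 0.11) and Ebf2 (-0.39 ± 0.13), transcription factors that are also expressed in developing or adult forebrain, and the stress kinase gene Eif2ak3 (0.19 ± 0.10, all SE), the last at 0.11 without CCH replicate 1. The other Emx2 probe, also detected on 8 arrays, went the other way, at -0.32 ± 0.23 (SE). The Ebf2 probe stood at 1.41 times its background, and the gene's other probe was detected on 0 arrays. Of taste transduction, 9 of 10 genes named on the array were tested, with 7 higher, 2 lower and 0 called, and 6 higher and 3 lower without CCH replicate 1. The gene that changed side was Gnb3, a G protein beta subunit named after its values were seen, with 23092, 252, 176 and 211 in CCH rats against 140, 143, 1559 and 81.5 in control rats. Its scaled difference was 1.35 ± 1.58 (SE, adjusted p = 0.740), and -0.25 without CCH replicate 1. Otop1, a proton channel of sour taste, gave 44.6, 27.9, 25.4 and 25.6 in CCH rats against 19.5, 15.5, 17.1 and 18.1 in control rats, with no overlap and a scaled difference of 0.52 ± 0.11 (SE, adjusted p = 0.0865). Car4, a carbonic anhydrase, differed by 0.36 ± 0.13, Entpd2, an ectonucleotidase, by 0.23 ± 0.13 and the phospholipase gene Plcb2 by -0.41 ± 0.23 (SE), the last by -0.18 without CCH replicate 1. The sweet and umami receptor subunit Tas1r3 did not reach 4 arrays. Of vomeronasal transduction, 6 of 7 genes were tested, with 4 higher, 2 lower and 0 called. Gnao1, the G protein of type 2 vomeronasal receptors and abundant in brain, differed by -0.34 ± 0.14 (SE, adjusted p = 0.302), Gnb2 by 0.14 ± 0.10, Gng8 by 0.03 ± 0.09 and the chloride channel gene Ano1 by 0.60 ± 0.49 (SE), the last by 0.12 without CCH replicate 1. The other probe of Gnao1 differed by -0.25 ± 0.16 (SE). Fpr1 was not tested.

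Of 15 other chemosensory receptors named on the array (trace amine, free fatty acid, guanylyl cyclase and calcium-sensing receptors), 14 did not reach 4 arrays, 10 of them on 0 arrays. The calcium-sensing receptor Casr was the exception, with 125, 138, 136 and 87.5 in CCH rats against 51.5, 56.5, 46.3 and 52.6 in control rats and a scaled difference of 0.96 ± 0.17 (SE, adjusted p = 0.0577).

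Other tissue in the samples varied between arrays. The summed processed signal of 8 choroid plexus markers ranged from 1204 to 122307 on CCH arrays and from 19758 to 170484 on control arrays, with 8 of 8 lower in CCH a median difference of -2.28 on the log2 scale and 0 called. The summed signal of 6 oligodendrocyte markers ranged from 188061 to 231712 on CCH arrays and from 152535 to 169674 on control arrays. Of these, 6 of 6 were higher, 3 at an unadjusted p under 0.05, and 0 were called. The summed signal of 6 microglia markers ranged from 13766 to 16635 on CCH arrays and from 14423 to 20457 on control arrays. Of these, 5 of 6 were lower, 3 at an unadjusted p under 0.05, and 0 were called. Among all tested probes 15.4% had such a p. Of 5 blood markers tested, 3 were higher and 2 lower. The 1 called was Cd3e, at 1.02 ± 0.14 (SE, limma adjusted p = 0.0432). The summed signal of 3 olfactory bulb markers ranged from 2636 to 13493 on CCH arrays and from 3094 to 5364 on control arrays, with 1 higher, 2 lower and 0 called. Of these, Cdhr1, named after its values were seen, gave 11239, 2255, 1079 and 1016 in CCH rats against 1420, 829, 1485 and 1209 in control rats, so CCH replicate 1 was the high array. Reln had no such rise, with 2223, 2377, 2327 and 1597 in CCH rats against 3923, 2249, 3377 and 2876 in control rats. Its difference was -0.79 ± 0.16, and 0.49 ± 0.35 by its other probe (SE). Th, at 1.70 times background, gave 31.2, 17.8, 15.8 and 23.3 in CCH rats against 20.5, 16.5, 20.5 and 21.6 in control rats. Its unscaled signal was highest on CCH replicate 1. A further bulb marker, Tbx21, was above background on 0 arrays. The part of other tissue in the members' values was not tested.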

How the data were processed

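The intensity values were extracted by the authors with Agilent Feature Extraction 9.5, per the submitters' processing notes. Per the file headers, the authors' processed signal is linear, with background subtracted, and it is not scaled across arrays. The series' value table holds the same numbers within a relative difference of 0.00498 and was not used.

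From these files, log2 of the processed signal was taken relative to the 75th percentile of the array's non-control spots, with spots of a probe averaged and outlier-marked spots (55 to 122 per array) set to missing. Names came from RefSeq accessions (15184 probes matched, GRCr8 table). The array grid is of an older assembly. A probe was tested if well above background on 4 or more arrays with at least 3 values per group. The diets were compared in R 4.3.3 with limma 3.58.1, using lmFit and eBayes (two-sided, Benjamini-Hochberg over all 31618 tested probes, threshold 0.05). The fit was tested on simulated data. Array measures were compared by two-sided exact permutation over 35 pairs of splits. No slide or scan term could be fitted, because it equals the diet. Per the labels, each array is a separate rat.

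Alternatives were other background corrections, scalings, filters, weights, a replicate block and leaving out each array. Normexp (offset 50) used the median spot signal, in place of the mean spot signal that had been planned. In median minus background, values under 1 were set to 1. Named members were the 6 per direction with the smallest p, the 12 highest above background, all vomeronasal members, the 5 most variable, the 4 that moved most between signals, 3 on each side of the detection limit, those detected in mostly 1 group, and up to 4 genes of each pathway list. The members and lists were chosen with earlier results of these data known.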

Additional observations from a re-analysis of the deposited data

Results flagged for a closer look

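Samples far from the other 3 of their group, by Dixon's test, were found in 6 of 82 groups of 4 arrays, and chance marks about 5% of groups not chosen for their values. That rate cannot be set against these groups, since most belong to probes named for their values, Or51af1 and Or2t47d for their spread. Or51af1 stood at -2.84 (scaled log2 signal) on CCH replicate 2, against -9.19 to -8.93 on the other CCH arrays. Or2t47d stood at -7.66 on control replicate 4, against -1.58 to -1.28 on the other control arrays. In the control group Or10ak14 had 1 array at -5.90 against -6.19 to -6.16, Or13a27e had 1 at -1.04 against -1.35 to -1.32, and Or5p6b had 1 at -2.32 against -2.78 to -2.74. CCH replicate 1 had 225 receptor probes well above background, against 147 to 156 on the other CCH arrays.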

How the results depend on the processing

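The count of members called was 0 with all arrays, 1 by median minus background signal, 1 among probes detected on all 8 arrays, 8 with array weights, and 0 to 5 when an array was left out, the 5 without CCH replicate 1. Over all tested probes the 55 calls became 246 with normexp, 209 for detection on all 8 arrays, 29 with no detection filter, 215 with trend and robust eBayes, 1339 with array weights and 0 to 708 with an array left out, the 708 without CCH replicate 1. The replicate numbers are shared between the diets, and same-numbered arrays also held the same position on their slides. Their deviations correlated at 0.145, 0.0797, -0.0052 and 0.246, and the part of position in this was not tested. The replicate block gave 0 calls over all probes. Under it 11 members were lower at an unadjusted p under 0.05 (6.96%, against 7.46% of all tested probes). The members at that p numbered 28 (17.7%, against 15.4% of all tested probes), and 57 with normexp (36.1% against 20.9%). They numbered 23 to 37 with an array left out (14.6% to 23.4%, against 11.6% to 21.8%). Those higher were 21 (13.3% against 8.79%), and 4 with normexp (2.53% against 5.83%) and 10 by median minus background (6.33% against 6.32%). With an array left out 16 to 24 were higher (10.2% to 15.3%, against 5.95% to 14.1%). Those lower were 7, and 53 with normexp, 27 by median minus background, 2 for detection on all 8 arrays, 19 with array weights and 7 to 20 with an array left out, the 20 without CCH replicate 1. The members' median difference was -0.18 with normexp and with median minus background, and -0.07 to 0.07 with an array left out. Another detection call moved the 158 members to 424 (positive and significant) or 96 (all 8 arrays), and to 234 (above the negative controls' 99th percentile, 157 shared).

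Of 1027 recomputed differences of 55 named probes 43 changed sign, in 18 probes, and the cause was not tested. With normexp they became -0.11 for Or10ak14, -0.09 for Or52s6, -0.14 for Or8b3, -0.05 for Or13n4b, -0.06 for Or5b123, -0.01 for Or9s13, -0.01 for Vom2r40, -0.14 for Vom2r36, -0.22 for Vom2r60, -0.18 for Or6b6, -0.21 for Or4c110, -0.13 for Or13p5 and -0.03 for Otop1. By median minus background they became -0.07 for Vom2r36, -0.40 for Vom2r60, -0.46 for Or6b6 and -0.49 for Or4c110. With array weights they became -0.09 for Or2a57, -0.15 for Vom2r40, -0.15 for Vom2r36, -0.36 for Or6b6 and -0.88 for Or9k7. Vom2r36 (0.00) became -0.00 with quantile normalization and -0.01 with each of median scaling and scaling to detected probes. With an array left out the range was -0.10 to 0.17 for Or2a57, -0.21 to 0.04 for Or5p6b, -0.14 to 0.28 for Or9s13, -0.20 to 0.51 for Vom2r40, -0.16 to 0.09 for Vom2r36, -0.21 to 0.42 for Vom2r60, -0.74 to 1.08 for Or6b6, -1.45 to 0.24 for Or5p60c, -0.75 to 0.98 for Or9k7 and -0.02 to 0.08 for Gng8. The signal was under 2 times background for 122 of 158 members.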
